A study of Mus musculus with 6 samples.

Results

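The DNA replication machinery was followed through 46 genes that encode the proteins of origin licensing, the replicative helicase, the DNA polymerases, the sliding clamp and its loader, Okazaki fragment processing, single-strand binding and histone assembly behind the fork. The genes were chosen by name, and all 46 had a tested row among the 23951 rows of the authors' deposited table, of which 14095 were tested. The table compares messenger RNA of wild-type (WT) mouse embryonic stem (ES) cells of the TT2 line with that of TT2 cells carrying a knockout (KO) of Alkbh1, a dioxygenase of the AlkB family. Both genotypes had a mixed C57BL6 and CBA background, were at passage 5, and were grown without feeder cells in standard ES cell medium. The series has 2 WT libraries and 4 KO libraries, the latter from 2 clones with 2 libraries each, so that the genotype cannot be told apart from differences between cell clones. For each gene the table gives 1 WT value and 1 KO value in FPKM (fragments per kilobase of transcript, normalised for library size) with the authors' fold change, p and q. There is therefore no value for single libraries, no SD, and no measure of depth. The labels do not say whether replicates were separate cultures, so the spread within WT or within 1 clone may be only technical. Spread among KO libraries also holds differences between the 2 clones. How p and q treated the 2 libraries of each clone is not given, so they may overstate the replication. In what follows a gene is called, and is said to have risen or fallen, at q under 0.05.

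Replication starts at origins bound by the origin recognition complex (ORC). With Cdc6 and Cdt1, ORC loads the ring-shaped MCM helicase in G1 phase, and in S phase the Dbf4-dependent kinase Cdc7, together with cyclin-dependent kinase, lets Cdc45 and GINS join MCM to form the active helicase. Polymerase alpha with primase starts each strand, polymerase epsilon extends the leading strand and polymerase delta the lagging strand, both tethered by the PCNA ring that replication factor C (RFC) loads. Mouse ES cells have a short G1 phase and spend much of their cycle in S phase, and many genes of this machinery are classical targets of E2F transcription factors.

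As scaled by the authors, most replication genes stood lower in the KO cells (with equal totals, given below, the median turns to 0.16), by less than 2-fold in all but 3 of them (Rfc4, Pcna and Pole4). Of the 46 genes, 31 were called lower (67.4%), 1 was called higher and 14 were not called, against a background of 50.8% of all tested genes called in either direction, 28.4% lower and 22.4% higher, in the authors' deposited table. The gene called higher was Pole, which encodes the catalytic subunit of polymerase epsilon. Of the 46 log2 fold changes in the authors' deposited table, 43 lay below 0, with a range from -1.28 (Rfc4) to 0.46 (Pole). Their median was -0.49, beside -0.06 over all tested genes. Replication genes are abundant, however, and abundant genes in general stood lower in this table. Among tested genes in the same deciles by level (10 classes of equal size by the mean of both FPKM values), weighted as the replication genes are, 62.7% were called lower and 4.14% higher, so the 67.4% was close to the share for genes of such levels. Against the median of its own decile by level, the gene stood lower in 23 cases and higher in 23, with a median difference of 0.02. In a bulk measurement a smaller share of cells in S phase and less RNA in each cell cannot be told apart.

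**Figure D1:**
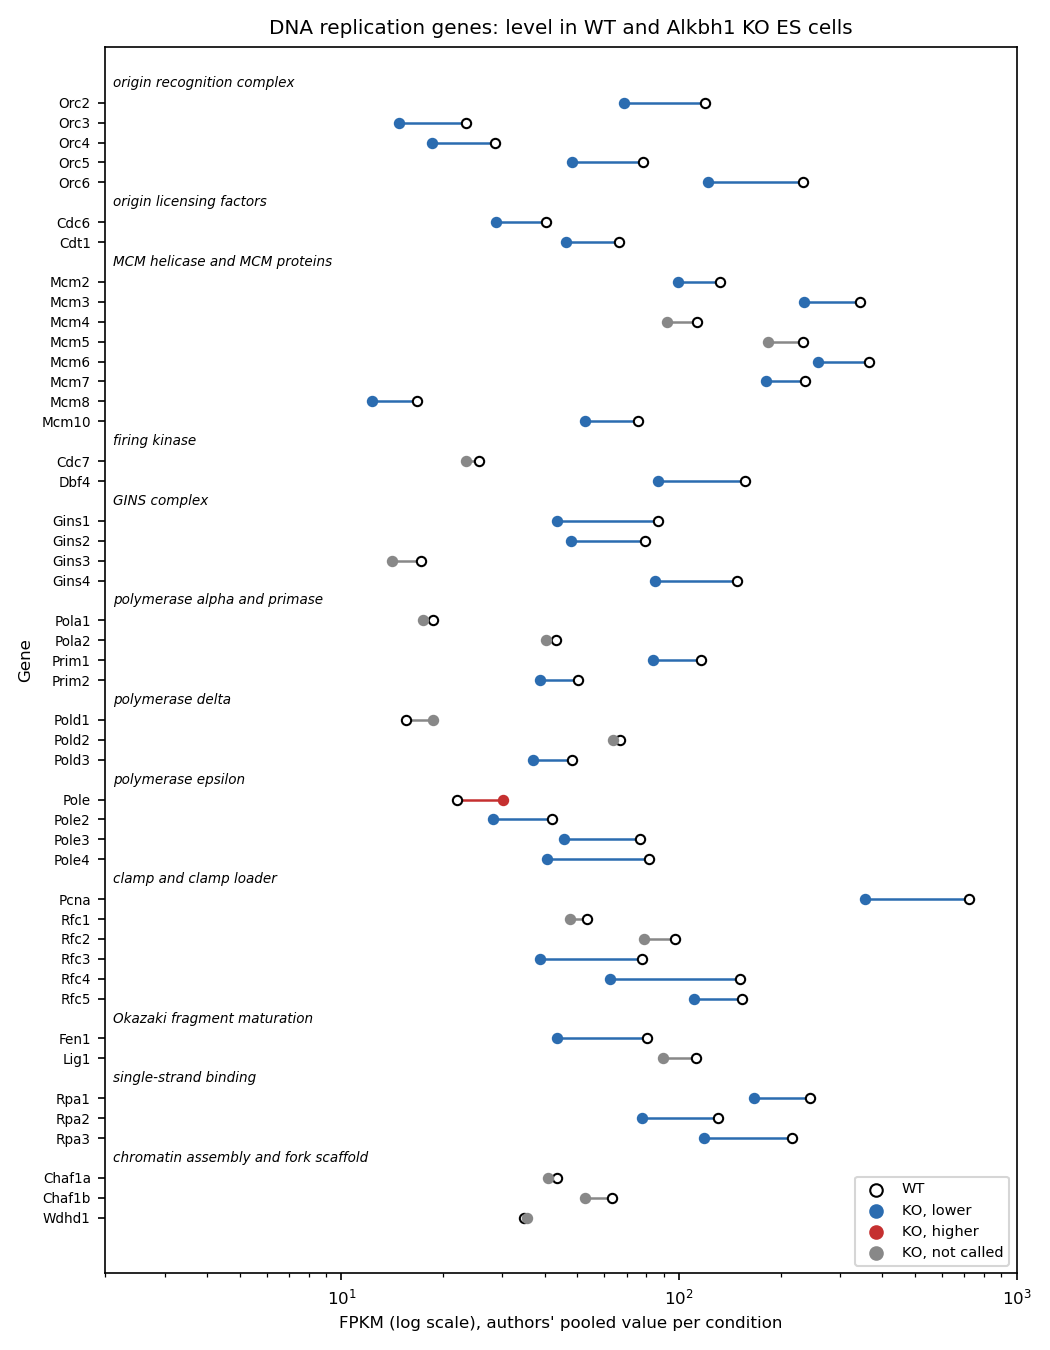
Level of each of the 46 replication genes in FPKM on a log scale, by role. Open circles are the authors' pooled WT value and filled circles their pooled KO value, coloured by the call at q under 0.05. In 31 genes the KO value lies to the left of the WT value and is called lower as scaled by the authors, and in Pole it lies to the right and is called higher. There are no error bars because the table holds 1 value per condition.

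The FPKM of tested genes summed to 63.6% of the WT sum in KO in the authors' deposited table, so scaling both conditions to equal totals would raise every log2 fold change by 0.65 and the median over all tested genes to 0.59. Under that scaling the 46 genes would have a median of 0.16, and the 31 genes that fell and Pole would split into 16 below and 16 above 0. The targeted gene Alkbh1 stood at 33.9 FPKM in WT and 18.1 in KO and was not called (q = 0.0943), in a region that 5 rows of the authors' deposited table share. The deleted part of Alkbh1 is not given in the labels. All 8 markers of pluripotent cells examined were expressed in both conditions, at 39.5 FPKM or more in WT and 39.1 FPKM or more in KO. Of the 8, 6 were called lower. They lay in deciles 9 and 10 by level, the highest, where 59.8% and 77.3% of tested genes were called lower. Summed over 10 fibroblast markers the level was 7.87 FPKM in WT and 11.5 in KO (Col3a1, Postn and Lum listed at 0 in WT), over 7 endoderm markers 1.80 and 1.53 FPKM, over 6 trophoblast markers 8.46 and 10.3 FPKM, and over 5 neuroectoderm markers 51.9 and 49.97 FPKM, of which Tubb3 gave 43.1 and 42.4 FPKM. Of these lists 3 fibroblast markers were called higher and 1 lower, 1 endoderm marker higher and 1 lower, 3 trophoblast markers higher and 1 lower, and 1 neuroectoderm marker higher (Ncam1) and 2 lower (Pax6, from 3.58 to 0.55 FPKM, and Sox1, from 0.56 to 0.12 FPKM). Their part in the differences of the replication genes was not tested.

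The promoters of these genes are shown for the sequence elements that replication genes are known to share. RefSeq promoters (build GRCm38.p6, from 250 bases before to 50 bases after each annotated start) were found for 39 of the 46 genes. An E2F word, TTTCCCGC, TTTCGCGC, TTTGCCGC or TTTGGCGC on either strand, was present in 17 of their 49 promoters (34.7%), beside 2.26% of all 32851 promoters and 3.78% of promoters of genes tested in the table. The word CCAAT, on either strand, was present in 23 of the 49 (46.9%), beside 37.4% of all promoters. The 170 bases before the start are printed below, 5′ to 3′ on the strand of the gene, for 5 genes picked after their values were seen: a pair of genes that carry E2F words and of which one was called and one was not (Mcm6, which fell, and Pola1, which was not called), Rfc3 and Pole4, which were among those that fell furthest, and Pcna, the most abundant of the 46, in which none of the 4 E2F words was found. Capitals mark E2F words and CCAAT on either strand, and in Mcm6 the first run of capitals holds 2 overlapping E2F words.
Mcm6: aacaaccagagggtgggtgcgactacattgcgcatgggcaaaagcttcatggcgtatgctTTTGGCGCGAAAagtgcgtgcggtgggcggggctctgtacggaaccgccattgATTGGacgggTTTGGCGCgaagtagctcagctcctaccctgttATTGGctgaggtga
Pola1: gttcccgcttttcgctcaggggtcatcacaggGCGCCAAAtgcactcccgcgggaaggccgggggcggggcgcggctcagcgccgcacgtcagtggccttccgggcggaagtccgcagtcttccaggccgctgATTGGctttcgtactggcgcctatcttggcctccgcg
Rfc3: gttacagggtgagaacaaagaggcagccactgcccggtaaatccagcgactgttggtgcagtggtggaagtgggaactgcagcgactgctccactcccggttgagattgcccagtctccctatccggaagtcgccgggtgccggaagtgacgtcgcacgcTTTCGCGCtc
Pole4: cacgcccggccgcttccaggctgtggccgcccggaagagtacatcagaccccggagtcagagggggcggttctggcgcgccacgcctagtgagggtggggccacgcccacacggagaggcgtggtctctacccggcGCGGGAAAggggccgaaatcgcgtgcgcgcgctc
Pcna: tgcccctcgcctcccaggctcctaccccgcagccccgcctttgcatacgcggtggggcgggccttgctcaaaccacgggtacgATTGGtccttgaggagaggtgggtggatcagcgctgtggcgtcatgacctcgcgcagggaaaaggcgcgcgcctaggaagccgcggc
These stretches lie, all on the minus strand of GRCm38.p6, at chr1:128359706-128359875 (Mcm6), chrX:93632156-93632325 (Pola1), chr5:151651209-151651378 (Rfc3), chr6:82652875-82653044 (Pole4, the more upstream of its annotated starts) and chr2:132253181-132253350 (Pcna). Of the 16 genes with an E2F word in a promoter, 11 fell and 5 were not called, with a median log2 fold change of -0.46. Of the 23 genes without one, 16 fell and 7 were not called, with a median of -0.56. The split by CCAAT was alike, with 15 of 21 genes with the word and 12 of 18 without it called lower. A word in a promoter is a match of letters and not a measured binding site.

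All 6 measured subunits of the origin recognition complex fell, 5 of them among the 46 genes and Orc1 in the list of other pathway genes, although Orc4 would lie at 0.03 and Orc1 at 0.30 on the log2 scale with equal totals. Orc6 (chr8:87823530-87832178, mm9), the smallest subunit, went from 233 FPKM in WT to 121 FPKM in KO, a log2 fold change of -0.94 (q = 0.000206) per the authors' deposited table. Orc2, a core subunit, went from 120 to 68.6 FPKM (log2 fold change -0.80, q = 0.000206 in the authors' deposited table). Orc5 went from 78.5 to 48.2 FPKM, Orc4 from 28.4 to 18.5 FPKM and Orc3 from 23.3 to 14.8 FPKM, with log2 fold changes of -0.70, -0.62 and -0.66 in the authors' deposited table. Orc1, the large ATPase subunit, went from 48.1 to 37.6 FPKM (log2 fold change -0.36, q = 0.0381 in the authors' deposited table). The log2 fold changes of the subunits thus ran from -0.94 to -0.36. In the same deciles by level as the 5 subunits among the 46, 58.2% of tested genes were called lower. The 5 subunits among the 46 genes lay below the median of their decile by level (tested genes of like mean FPKM) by 0.08 to 0.50, and Orc1 lay 0.15 above its own. Orc3, Orc4 and Orc5 each share their row's region with a neighbouring gene, which makes their values less certain.

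Both licensing factors fell, and with equal totals they would lie at 0.17 (Cdc6) and 0.13 (Cdt1). Cdc6, the ATPase that works with ORC to load the helicase, went from 40.3 to 28.8 FPKM (log2 fold change -0.49, q = 0.00348 in the authors' deposited table). Cdt1, which brings MCM to the origin and is degraded in S phase, went from 66.3 to 46.3 FPKM (log2 fold change -0.52, q = 0.00336 in the authors' deposited table). Cdc6 lay 0.14 and Cdt1 0.01 under the median of its decile by level. In these deciles 52.4% of tested genes were called lower, weighted as these genes are. Against tested genes of like level and transcript length, Cdc6 lay 0.47 under and Cdt1 0.09 over the median.

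The 6 subunits of the MCM2-7 helicase ring were abundant and had similar fold changes, below 0 as scaled by the authors and above 0 for all 6 with equal totals. Mcm6 had 365 FPKM in WT and 258 in KO, and Mcm3 343 and 234 FPKM; their log2 fold changes of -0.50 and -0.55 (q = 0.0040 and q = 0.00056 in the authors' deposited table) were the most negative of the ring. Mcm7 went from 236 to 181 FPKM and Mcm2 from 132 to 99.35 FPKM, with log2 fold changes of -0.38 and -0.41 (q = 0.0255 and q = 0.0162 in the authors' deposited table). Mcm5, at 234 FPKM in WT and 184 in KO, and Mcm4, at 113 and 91.9 FPKM, missed the threshold with q = 0.0502 and q = 0.0847 in the authors' deposited table. The ring's log2 fold changes thus ran from -0.55 to -0.30. With 4 of 6 genes called lower (66.7%), the ring stood beside 77.3% of tested genes in the same decile. All 6 lay above the median of their decile by level, -0.72, by 0.17 to 0.42. Against tested genes of like level and transcript length the median difference was 0.06, with 4 above and Mcm3 (-0.09) and Mcm6 (-0.04) below. The row of Mcm7 shares its region with the microRNA genes of its intron.

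The other MCM proteins have separate tasks, and their genes fell as well, though with equal totals they would lie at 0.13 (Mcm10) and 0.21 (Mcm8). Mcm10, which is needed to activate the loaded helicase, went from 75.5 to 52.6 FPKM (log2 fold change -0.52, q = 0.00148 in the authors' deposited table). Mcm8, a helicase subunit that works in homologous recombination, was the least abundant of the 8 MCM genes and went from 16.7 to 12.3 FPKM (log2 fold change -0.44, q = 0.0168 in the authors' deposited table). Of tested genes, 59.8% were called lower in the decile by level of Mcm10 and 31.5% in that of Mcm8. Mcm10 lay 0.01 and Mcm8 0.29 under the median of its decile.

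Among the proteins that turn the loaded ring into a working helicase, some subunits of a complex were called and others were not; the difference between partners was not tested. Dbf4, the activating subunit of the firing kinase, went from 156 to 86.4 FPKM (log2 fold change -0.86, q = 0.000206), while its catalytic partner Cdc7 stood at 25.6 FPKM in WT and 23.5 in KO (log2 fold change -0.12, q = 0.536) per the authors' deposited table. Of the 4 GINS subunits, Gins1 went from 86.7 to 43.6 FPKM (log2 fold change -0.99) and Gins4 from 149 to 84.9 FPKM (-0.81), both with q = 0.000206 in the authors' deposited table. Gins2 went from 79.5 to 47.7 FPKM (log2 fold change -0.74, q = 0.00723 in the authors' deposited table), in a region that its row shares with 2 other genes. Gins3 was the least abundant GINS gene, at 17.2 FPKM in WT and 14.1 in KO. It was not called (log2 fold change -0.29, q = 0.139 in the authors' deposited table). Shares called lower in the same deciles were 61.1% of tested genes for the 2 kinase genes and 57.1% for GINS.

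The polymerase genes included the 1 gene of the 46 that rose. Pole (chr5:110715337-110766472, mm9) went from 21.97 to 30.1 FPKM, a 1.37-fold rise (log2 fold change 0.46, q = 0.00892 in the authors' deposited table), whereas the other subunits of the same polymerase fell (Pole2 would lie at 0.07 with equal totals). Pole4 and Pole3, small histone-fold subunits, went from 81.8 to 40.6 FPKM and from 76.7 to 45.7 FPKM, with log2 fold changes of -1.01 and -0.75 (both q = 0.000206 in the authors' deposited table). Pole2, the B subunit, went from 42.2 to 28.1 FPKM (log2 fold change -0.58, q = 0.0019 in the authors' deposited table). In WT, Pole was thus the least abundant of the 4 subunit genes per length, and in KO it stood above Pole2. In the same deciles as the 4 genes, 56.1% of tested genes were called lower and 4.73% higher.

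For polymerase delta, 1 of 3 genes fell, Pold3, which would lie at 0.26 with equal totals. The share of tested genes called lower in the same deciles was 50.4%. Pold1, the catalytic subunit, stood at 15.55 FPKM in WT and 18.7 in KO, the lowest WT level among the 46 genes, and was not called (log2 fold change 0.26, q = 0.166 in the authors' deposited table). Pold2 had 66.8 FPKM in WT and 63.6 in KO (log2 fold change -0.07, q = 0.736 in the authors' deposited table). The row of Pold1 shares its region with Mir7053 and that of Pold2 with Aebp1. Pold3, a PCNA-binding subunit, went from 48.3 to 36.9 FPKM (log2 fold change -0.39, q = 0.0219 in the authors' deposited table).

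In the polymerase alpha and primase complex, both primase genes fell (with equal totals, 0.18 for Prim1 and 0.28 for Prim2) and neither polymerase gene was called. Prim1, the catalytic primase subunit, went from 116 to 83.8 FPKM (log2 fold change -0.48, q = 0.00498), and Prim2, its large partner, from 50.1 to 38.8 FPKM (-0.37, q = 0.0359) per the authors' deposited table. Pola1, the catalytic polymerase subunit, had 18.7 FPKM in WT and 17.4 in KO (log2 fold change -0.10, q = 0.609), and Pola2, the B subunit, 43.2 and 40.2 FPKM (-0.10, q = 0.619) per the authors' deposited table. Whether the primase genes differed from the polymerase genes in response was not tested. In the same deciles as these genes, 57.1% of tested genes were called lower.

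The clamp gene and 3 of the 5 genes of its loader fell, with log2 fold changes of the 6 genes from -1.28 to -0.16. Pcna (chr2:132075021-132078916, mm9) had the highest level of all 46, at 723 FPKM in WT and 356 in KO, a log2 fold change of -1.02 (q = 0.000206 in the authors' deposited table). Rfc4 (chr16:23107540-23127803, mm9) had the most negative log2 fold change, -1.28, from 152 to 62.4 FPKM, but with a larger q of 0.0309 in the authors' deposited table. Its row shares a region with the translation factor gene Eif4a2 and small nucleolar RNA genes, so its value is less certain than that of Pcna. Rfc3 went from 77.6 to 38.9 FPKM (log2 fold change -0.998, q = 0.000206) and Rfc5 from 153 to 111 FPKM (-0.47, q = 0.00605) per the authors' deposited table. Rfc1, the large subunit, had 53.3 FPKM in WT and 47.6 in KO, and Rfc2 97.6 and 78.8 FPKM; neither was called (q = 0.386 and q = 0.0821 in the authors' deposited table). With equal totals Rfc5 would lie at 0.19. Differences between the loader genes were not tested. In the same deciles as the 6 genes, 71.5% of tested genes were called lower.

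Of the 2 genes that finish Okazaki fragments, Fen1, the flap endonuclease, fell from 80.5 to 43.4 FPKM (log2 fold change -0.89, q = 0.000206 in the authors' deposited table). Lig1, the ligase that seals the nick, missed the threshold. It had 113 FPKM in WT and 89.95 in KO (log2 fold change -0.32, q = 0.0591 in the authors' deposited table), in a region that its row shares with 6330408A02Rik. For the 2 genes, the share of tested genes called lower in the same deciles was 68.6%.

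All 3 subunits of replication protein A, which coats single-stranded DNA, fell, although Rpa1 would lie at 0.10 with equal totals. Rpa1 went from 245 to 166 FPKM (log2 fold change -0.56, q = 0.00163), Rpa2 from 131 to 77.9 FPKM (-0.75, q = 0.000206) and Rpa3 from 216 to 118 FPKM (-0.87, q = 0.000206) per the authors' deposited table. The fall was smallest on this scale for the large subunit gene and largest for the small one. This difference between subunits was not tested. All 3 genes lie in the highest decile by level, where 77.3% of tested genes were called lower. Their median difference from the median of that decile was -0.03.

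None of the 3 genes of chromatin assembly and the fork scaffold was called. The share of tested genes called lower in their decile by level was 59.8%. Chaf1a and Chaf1b, which encode subunits of the histone chaperone that deposits new histones behind the fork, had 43.4 and 63.5 FPKM in WT and 40.9 and 52.8 FPKM in KO (log2 fold change -0.08, q = 0.666, and -0.27, q = 0.136 in the authors' deposited table). Wdhd1, which links the helicase to polymerase alpha, had 34.8 FPKM in WT and 35.4 in KO (log2 fold change 0.02, q = 0.909 in the authors' deposited table). All 3 lay above the median of their decile by level, by 0.24 to 0.54.

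**Figure D2:**
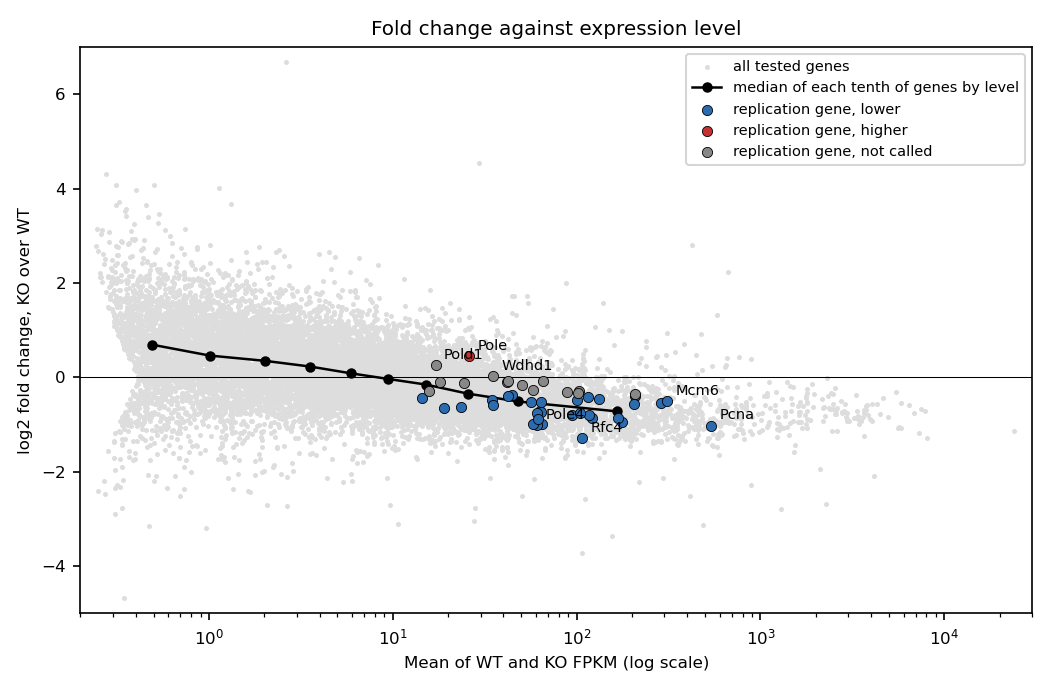
Log2 fold change of KO over WT against the mean of both FPKM values (log scale) for all tested genes with a finite fold change (pale grey), with the median of each decile of genes by level (black). The replication genes, coloured by call, lie around the black line at the abundant end. Of the 46, 23 fall under and 23 over the median for genes of their level.

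Of the 46 genes, 37 lay in the highest 2 deciles by level, where the median log2 fold changes of all genes were -0.51 (34.6 to 76.6 FPKM) and -0.72 (above 76.7 FPKM). The shares of genes called lower there were 59.8% and 77.3%. The 31 genes that fell lay a median of 0.14 below their decile, 22 below it and 9 above it. The 14 uncalled genes lay a median of 0.40 above it. The calls rest on the same fold changes, so this contrast follows from the split and is no separate result. The 9 that fell but lay above their decile were Mcm2, Mcm3, Mcm6, Mcm7, Prim1, Prim2, Pold3, Rfc5 and Rpa1. Pole, at 0.80, lay furthest above.

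A second feature that the genes' choice did not use was transcript length. Lengths, taken from the longest protein-coding GENCODE M21 transcript, were found for all 46 genes and ran from 670 bases (Rpa3) to 7163 bases (Pole). The genes that fell furthest had short transcripts. Rfc4 (1279 bases), Pcna (1518), Pole4 (1769), Rfc3 (1317), Gins1 (1087) and Orc6 (1466) held the 6 most negative log2 fold changes. Of the 14 genes that were not called, 10 were longer than the median, such as Chaf1a (5535 bases), Pola1 (5346), Rfc1 (4751) and Wdhd1 (4260), though Pold2 (1646) and Chaf1b (1922) were short and not called. Among the 23 genes of at most the median length, 19 fell (82.6%) and none rose, with a median log2 fold change of -0.75. Of tested genes of like level and transcript length, 71.9% were called lower and 1.87% higher. Among the 23 longer genes, 12 fell (52.2%) and 1 rose (4.35%), with a median of -0.38. For these the shares of tested genes of like level and transcript length were 47.6% lower and 7.84% higher. Spearman's rho between length and log2 fold change was 0.59 across the 46 genes and 0.66 with coding length, beside 0.33 and 0.37 across all tested genes with a length. These are descriptions across genes, which are not independent replicates and share the same 2 pooled values, scaling and level trend. Against tested genes of the same class of level and length (20 classes), 59.8% of which were called lower when weighted in the same way, the 46 genes had a median difference of -0.03, with 25 below and 21 above.

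**Figure D3:**
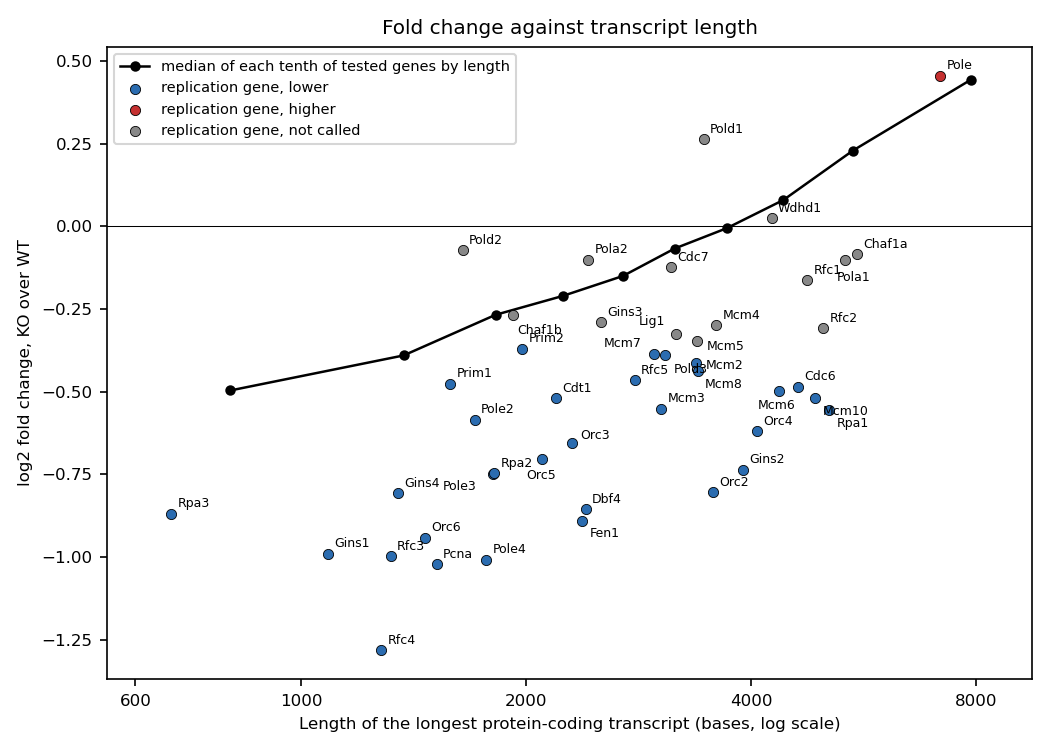
Log2 fold change of KO over WT against the length of the longest protein-coding transcript (bases, log scale) for the 46 replication genes, coloured by call. The black line gives the median of each decile of all tested genes by length, from -0.50 in the shortest to 0.44 in the longest. Short genes such as Rfc4, Pcna and Gins1 lie at the bottom left and Pole, the longest at 7163 bases, at the top right.

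Inside complexes the order of transcript length and fold change was mixed. In polymerase epsilon, Pole (7163 bases) rose while Pole2, Pole3 and Pole4 (1706, 1805 and 1769 bases) fell. In the clamp loader, Rfc1 and Rfc2 (4751 and 4995 bases) were not called while Rfc3, Rfc4 and Rfc5 (1317, 1279 and 2796 bases) fell. In polymerase alpha and primase, Pola1 (5346 bases) was not called and Prim1 and Prim2 (1583 and 1975 bases) fell, but Pola2 (2421 bases) was also not called. In GINS, Gins2 (3900 bases) fell while the shorter Gins3 (2519) was not called, and in polymerase delta Pold3 (3069 bases) fell while the shorter Pold2 (1646) was not called. By coding length these pairs have the opposite order, with 555 bases for Gins2 and 648 for Gins3, and 1383 for Pold3 and 1407 for Pold2. Rpa1 (5077 bases), Orc4 (4066) and Orc2 (3561) had long transcripts and fell. Within the MCM2-7 ring, transcripts were between 2962 and 4355 bases long. The part of length in these differences was not tested.

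The genes lay on 15 chromosomes, with 9 on chromosome 5 and 6 on chromosome 8. Median log2 fold changes over all tested genes of chromosomes 5 and 8 were both -0.04, and the replication genes there had medians of -0.38 and -0.63. The medians over all tested genes are not matched by level, so the values are not of like genes. On chromosome 5, Mcm7, Cdc7, Pole, Rfc1, Rfc2 and Rfc5 lay above the median of their decile by level and Orc5, Dbf4 and Rfc3 below it. On chromosome 8, Mcm5 lay above it and the others below it.

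Other genes of the pathway were read from a list of 89 tested genes, ordered by role. Of these, 40 were called lower (44.9%), 5 higher and 44 not called, with a median log2 fold change of -0.31. Of the 40, 18 would lie above 0 with equal totals. Among tested genes in the same deciles by level, 48.4% were called lower, so the share was not above that of genes of like level. The 5 called higher (5.62%) stood beside 9.48% in the same deciles. In the nucleotide supply group, 10 of 12 genes (83.3%) fell and none rose, where 63.6% of tested genes in the same deciles were called lower and 7 of the 12 lay above their decile's median. Nme1, a nucleoside diphosphate kinase, went from 524 to 220.1 FPKM and Dut, the enzyme that removes dUTP, from 206 to 99.98 FPKM, with log2 fold changes of -1.25 and -1.05 in the authors' deposited table. Among histone chaperones, 6 of 10 (60%) fell and 1 rose, beside 60.4% called lower and 5.4% higher in the same deciles. Asf1a, which hands histones to the assembly factors, went from 42.2 to 17.3 FPKM (log2 fold change -1.29), and Hat1, the acetyltransferase of new histone H4, from 623 to 343 FPKM (-0.86) per the authors' deposited table. The row of Asf1a shares its region with Mcm9, which makes its value less certain.

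In the group of fork protection and checkpoint genes, 5 of 12 (41.7%) fell and none rose, beside 45.3% called lower in the same deciles. Tipin, which stabilises paused forks, went from 454 to 223 FPKM (log2 fold change -1.02), and the checkpoint kinase gene Chek1 from 49.0 to 27.2 FPKM (-0.85) per the authors' deposited table. Of 16 licensing and firing regulators, 7 (43.8%) fell and 2 (12.5%) rose, Cul4a and Ticrr. In the same deciles 49.7% were called lower and 8.53% higher. The row of Cul4a shares its region with Mir7065 and that of Ticrr with Kif7. Gmnn, which encodes the Cdt1 inhibitor geminin, went from 234 to 121 FPKM (log2 fold change -0.95), and the ubiquitin ligase scaffold gene Cul4b from 97.8 to 56.5 FPKM (-0.79) per the authors' deposited table. Of 8 genes of alternative clamp loaders and clamp regulators, 4 fell (50%, beside 43.8% in the same deciles), led by 2810417H13Rik, the gene of the PCNA-associated factor, from 67.5 to 33.0 FPKM, and Dscc1 from 26.7 to 13.1 FPKM (log2 fold change -1.03 for both in the authors' deposited table). The row of 2810417H13Rik shares its region with Trip4.

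Of 9 further polymerase and flap processing genes, 4 (44.4%) fell and 1 rose, beside 44.6% called lower and 10.9% higher in the same deciles. Rnaseh2b, a subunit of the ribonuclease that removes ribonucleotides from DNA, went from 89.7 to 49.9 FPKM, and Pold4, the smallest polymerase delta subunit, rose from 2.21 to 3.94 FPKM (log2 fold changes -0.85 and 0.83 in the authors' deposited table). Of 4 topoisomerase genes (45.5% called lower in the same deciles), Top1 alone was called, from 54.3 to 32.5 FPKM (log2 fold change -0.74 in the authors' deposited table). Of 5 cohesion genes (55.9% called lower in the same deciles), Smc1a alone was called, from 68.1 to 53.3 FPKM (log2 fold change -0.35 in the authors' deposited table, which would be 0.30 with equal totals). Of 13 genes of E2F and Rb factors, 2 (15.4%) fell and 1 rose, beside 29.9% called lower and 19.8% higher in the same deciles. The repressive E2F gene E2f4 went from 121 to 84.3 FPKM (log2 fold change -0.52, which would be 0.13 with equal totals), and Rb1, whose product holds E2F inactive, rose from 2.69 to 6.57 FPKM (1.29) per the authors' deposited table, in a region that its row shares with 2 other genes. The activating E2F genes E2f1, E2f2 and E2f3 were not called.

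**Figure D4:**
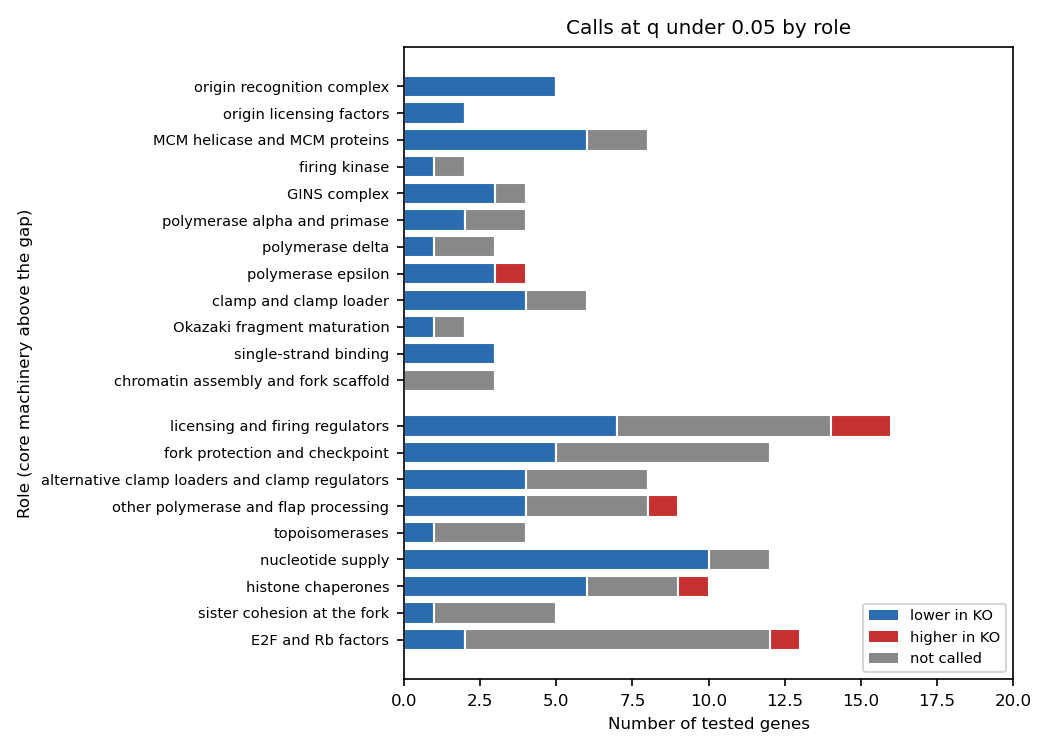
Number of tested genes called lower in KO (blue), not called (grey) and called higher (red) at q under 0.05 as scaled by the authors, by role, for the 46 genes of the core machinery (above the gap) and the 89 other genes of the pathway (below it). All 5 ORC genes and all 3 replication protein A genes are blue, beside 58.2% and 77.3% of tested genes in the same deciles by level. Of 12 nucleotide supply genes 10 are blue, beside 63.6% in the same deciles.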

How the data were processed

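Libraries were made from total RNA by a strand-specific messenger RNA protocol, per the labels' protocols, and aligned with TopHat2 to mm9, per the submitters' processing notes. The column names are those that Cuffdiff writes for genes, per the file headers, but no source used here names the tool behind the table. Its FPKM values, log2 fold changes, test statistics (a score), p-values and q-values were computed by the authors; the gene annotation, the scaling between libraries and the depth per library are not given in the sources used here. No test was run anew, since the table holds no value per library. Recomputing q from the deposited p by the Benjamini-Hochberg method (14095 tested genes) gave values that differed by at most 5.18e-07. The smallest p of the table, 5e-05, was shared by 13 of the 46 genes, which therefore cannot be ranked by it.

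Genes were called at q under 0.05. Level classes were deciles of tested genes by the mean of both FPKM values, and 20 classes combined 5 by level with 4 by transcript length, found for 99.2% of tested genes (GENCODE M21; lengths only). Shares of tested genes in the same classes were averaged over the genes of a list. Motif words were searched in RefSeq promoters (GRCm38.p6). Medians leave out genes listed at 0 in a condition. The named genes are all 46, Alkbh1, and up to 2 called genes per role of the other list with the largest fold changes. Orc1, Mcm9, Cul4a, Ticrr, the called neuroectoderm markers, Tubb3 and uncalled E2F genes were named after their values were seen. The genes, lists and classes were chosen with earlier results of these data known, and the class by level and length was added after seeing the data. The class medians were tested on simulated data with a trend by level and none by length. There, differences from them came out somewhat too negative for genes made to fall. The length part of the classes was thus not tested. Software was Python 3.11.15 with pandas 2.3.3, NumPy 2.4.6 and SciPy 1.17.1.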

Additional observations from a re-analysis of the deposited data

How the results depend on the processing

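The counts of genes called lower or higher stayed within 1.5 times at q under 0.01 and under 0.1, with q recomputed and when genes below the 25th percentile of level were left out. Asking also for at least 1.5-fold left 17 of the 31 falls and 0 of the 1 rise among the 46 genes, and 23 of 40 falls among the other genes of the pathway. Rows of 1 gene and 1 region gave 2 of 5 rises in that list. Scaling changed directions. With equal totals the called genes split into 16 below and 16 above 0 (22 and 23 in the other list). The median of the 46 then turned to 0.16, beside 0.59 over all tested genes. Against the decile by level the called genes split into 22 and 10 (26 and 19 in the other list), with a median of 0.0205 for the 46. Against the class of level and length, added after seeing the data, they split into 23 and 9 (31 and 14), with a median of -0.0255.

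Genes that fell but turned with equal totals were Cdc6 (0.17), Cdt1 (0.13), Mcm10 (0.13), Mcm2 (0.24), Mcm3 (0.10), Mcm6 (0.16), Mcm7 (0.27), Mcm8 (0.21), Orc4 (0.034), Pold3 (0.26), Pole2 (0.0682), Prim1 (0.18), Prim2 (0.28), Rfc5 (0.19) and Rpa1 (0.10). All of these lay below the median of 0.59 that all tested genes have under that scaling. Against the decile by level, those that turned were Mcm2 (0.31), Mcm3 (0.17), Mcm6 (0.22), Mcm7 (0.33), Pold3 (0.12), Prim1 (0.24), Prim2 (0.14), Rfc5 (0.25) and Rpa1 (0.16). Against the class of level and length they were Cdt1 (0.0936), Mcm2 (0.045), Mcm7 (0.0738), Pold3 (0.0704), Pole2 (0.15), Prim1 (0.26), Prim2 (0.24) and Rfc5 (0.15). A pseudocount of 1 moved no gene by 0.1. No paired analysis was possible because the table holds 1 pooled value per condition, and leaving out replicates was not run for the same reason. Depth is unknown, so what it limits cannot be stated.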

Other observations

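Partner genes among the other members of the pathway, chosen after their values were seen, are given side by side; the differences between partners were not tested. Tipin fell from 454 to 223 FPKM, while Timeless, whose product binds it, had 25.1 FPKM in WT and 24.4 in KO (log2 fold change -0.04, q = 0.853 in the authors' deposited table). Their longest transcripts have 1841 and 4457 bases. Asf1a fell, while Asf1b, the form of dividing cells, had 54.1 FPKM in WT and 48.2 in KO (log2 fold change -0.17, q = 0.385 in the authors' deposited table). Ssrp1 and Supt16, the pair of the histone chaperone FACT, both fell, with log2 fold changes of -0.86 and -0.48 in the authors' deposited table; the row of Supt16 shares its region with Rpgrip1. Top2a, the topoisomerase of dividing cells, had 316 FPKM in WT and 320.4 in KO (log2 fold change 0.02, q = 0.93 in the authors' deposited table), where genes of its decile by level had a median of -0.72. Rrm1 and Rrm2, the subunits of ribonucleotide reductase, both fell, with log2 fold changes of -0.66 and -0.38 in the authors' deposited table. Ssrp1, Supt16, Rrm1 and Rrm2 lie in the highest decile by level, where 77.3% of tested genes were called lower. Ssrp1 lay 0.14 below the median of that decile, and Supt16, Rrm1 and Rrm2 lay 0.24, 0.06 and 0.34 above it. With equal totals Supt16 would lie at 0.17 and Rrm2 at 0.27, but Ssrp1 at -0.20 and Rrm1 at -0.01.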
